A study of Mus musculus with 4 samples.

Results

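The genes described here are 33 known targets of the hypoxia-inducible factors (HIF) that lie outside glucose metabolism, in RAW264.7 cells, a mouse macrophage line. They were chosen by name, as genes that HIF is known to raise, and every probe set (the group of short probes that reads 1 transcript) annotated to 1 of these names was taken. Earlier results of these data were known when the list was made. Of the 33 genes, 32 were read by at least 1 probe set that carries a single symbol, 65 probe sets in all, out of 18194 genes and 45101 probe sets on the array. Cells were kept for 4 days in normoxia (NC), in normoxia with IL6 (NC+IL6), in hypoxia (HC) or in hypoxia with IL6 (HC+IL6), and RNA of each condition was hybridized to 1 Affymetrix array. Hypoxia was 1% oxygen and IL6 was given at 25 ng/ml, while the sources used here do not state how much oxygen normoxia had. The study compared hypoxia with normoxia, alone and beside IL6, to learn how low oxygen changes macrophages that are polarized by IL6, a cytokine that signals through STAT proteins. All 4 conditions used the same transformed line, and the labels do not say how many cultures stand behind an array.

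HIF is a transcription factor made of an alpha subunit that oxygen destabilizes and a constant beta subunit. When oxygen is plentiful, prolyl hydroxylases mark the alpha subunit for degradation, and when oxygen is scarce the alpha subunit accumulates, pairs with the beta subunit and binds short DNA elements near its targets. Besides the enzymes of glycolysis, these targets include genes for mitochondrial turnover, blood vessel growth, collagen modification, lipid storage and restraint of growth, and in macrophages HIF also responds to inflammatory signals.

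With 1 array per condition no comparison has a replicate, and none was tested, which also limits the precision of the values below. Values are log2 signals as deposited, and a ratio is the difference of the log2 signals of 2 arrays. Each array had a background floor, set from genes restricted to other tissues (the 95th percentile over their 96 probe sets), at a log2 signal of 6.46 to 7.02. A gene was measured in a comparison if the brighter array was above its own floor, a dimmer array below its floor was raised to it so that the fold is a lower bound ("at least"), and a gene was called when the fold reached 2. No fold is given where raising the dimmer array took it past the brighter one. As a scale for the noise, ratios of different probe sets of the same gene had a pooled SD of 0.34 on the log2 scale in both hypoxia comparisons, 0.28 for NC+IL6 over NC and 0.30 for HC+IL6 over HC, which does not include the variation between cultures. All 10 macrophage markers were above the floor on all 4 arrays, and the markers of fibroblasts, endothelial cells, T cells and B cells were below it on all 4. Epcam was the only epithelial marker above the floor, on the NC array. The 3' to 5' signal ratio of Gapdh was 0.933 and 0.931 on the NC and NC+IL6 arrays and 0.873 and 0.878 on the HC and HC+IL6 arrays. That of Actb moved the other way, from 1.54 and 1.41 to 1.73 and 1.62, and the median log2 signal of the whole array was 5.64 and 5.55 against 5.90 and 5.86. The part of these shifts in the hypoxia results was not tested. In RNA from whole cultures, fewer cells of a kind and less RNA per cell cannot be told apart.

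Most of the measured targets were brighter in hypoxia, and none was called lower. In HC over NC, 14 of 29 measured targets were at least 2-fold higher, where 3.8% of all 9154 measured genes were, and 0 were 2-fold lower, where 1.08% of all genes were. The median log2 ratio was 0.98 over the targets and 0.05 over all genes. A ratio above 0 was seen in 26 of the 29 targets and in 4933 of the 9154 genes. In HC+IL6 over NC+IL6, a comparison that shares no array with the first, 9 of 29 targets were 2-fold higher beside 3.3% of all genes, and 0 were lower beside 1.38%. Here the median log2 ratio was 0.47 over the targets and 0.02 over all genes, with 26 of 29 above 0 again, beside 4736 of 9087 genes. Ankrd37, Ndrg1, Fam162a, Mgarp, Adm and Ero1a were 2-fold higher in both hypoxia comparisons, 6 of 29 targets, where 1.3% of the 8848 genes with a fold in both were.

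IL6 alone also went with brighter signals of these genes, in a comparison that shares the NC array with HC over NC. An error on that array would enter both comparisons, the order of the arrays below and the differences between the hypoxia ratios. With 1 array per condition it cannot be told apart from the exposures. In NC+IL6 over NC, 13 of 27 measured targets were 2-fold higher beside 3.51% of all genes, and 0 were lower beside 1.19%. The median log2 ratio was 0.86 over the targets and -0.03 over all genes. Within hypoxia, HC+IL6 over HC, 4 of 29 targets (Ndrg1, Adm, P4ha2 and Ero1a) were 2-fold higher beside 2.36% of all genes, 0 were lower beside 1.8%, and the median was 0.41 against -0.03. The NC array was the dimmest and the HC+IL6 array the brightest for 21 of the 29 targets above the floor on at least 1 array, an order seen in 13.6% of the 9651 genes above it.

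**Figure D1:**
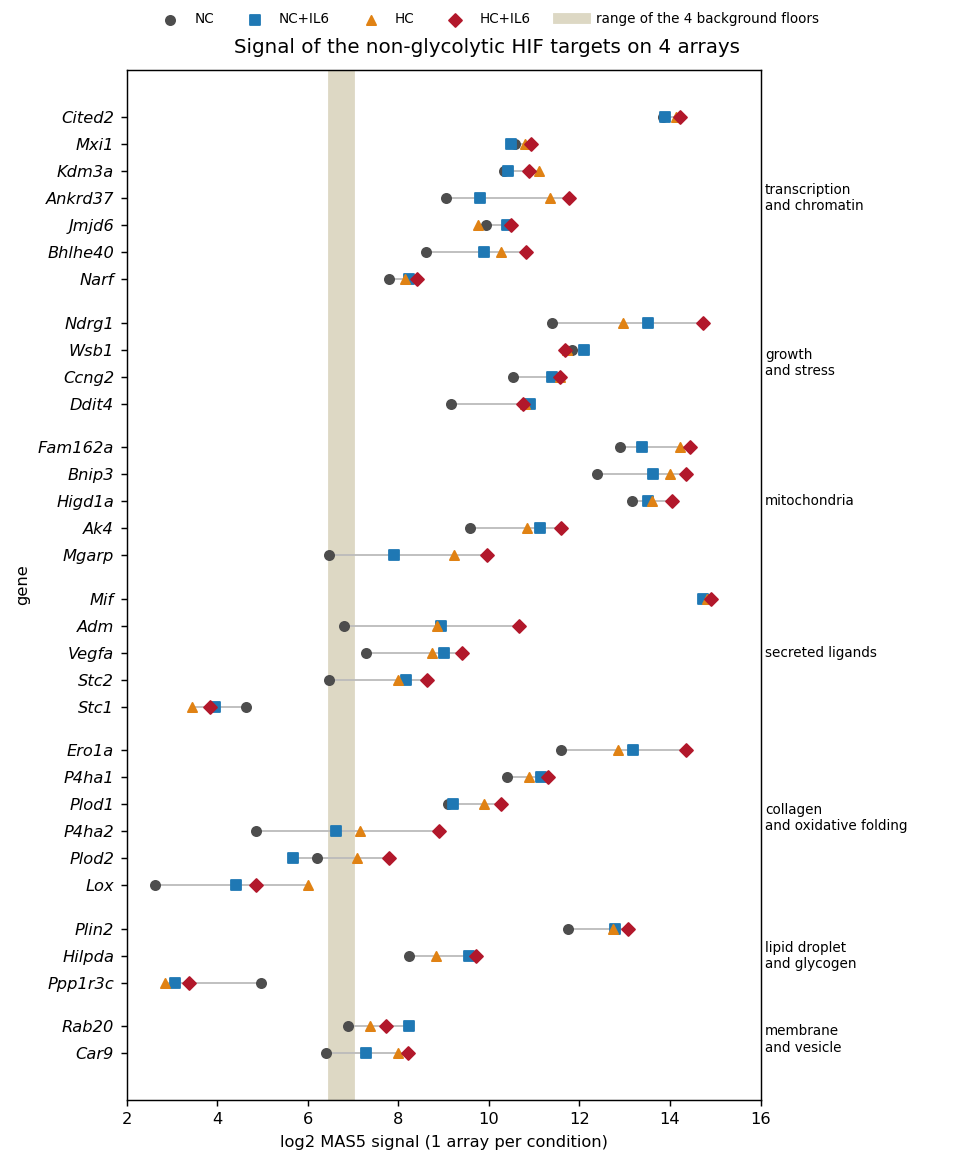
Log2 MAS5 signal (x axis) of 32 targets (y axis, grouped by role) on the NC, NC+IL6, HC and HC+IL6 arrays, 1 point per array, for the brightest probe set of each gene by mean log2 signal; the shaded band spans the background floors of the 4 arrays. For 21 targets the NC point is the leftmost and the HC+IL6 point the rightmost, while Stc1, Lox and Ppp1r3c stay left of the band on all 4 arrays.

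**Figure D2:**
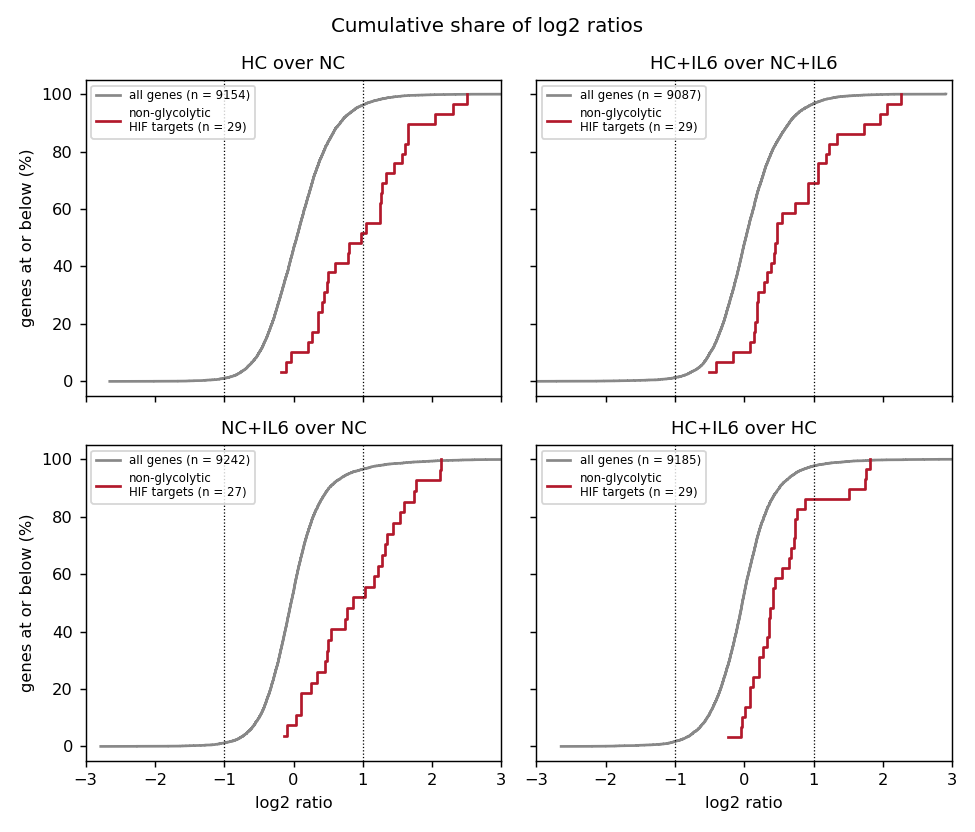
Cumulative share of genes (y axis, percent) at or below a given log2 ratio (x axis, drawn from -3 to 3, with dotted lines at 2-fold) for the targets and for all measured genes, in each of the 4 comparisons. The curve of the targets lies to the right of that of all genes in all 4 panels, with medians of 0.98, 0.47, 0.86 and 0.41 in HC over NC, HC+IL6 over NC+IL6, NC+IL6 over NC and HC+IL6 over HC.

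To show the DNA ahead of the targets, whether or not they were called, the 250 bases before the start were searched. The search was for the core letters of the hypoxia response element, ACGTG or GCGTG, on both strands. Windows came from RefSeq with the build GRCm38.p6 and were given for 27 of the 33 targets, all but Bhlhe40, Ndrg1, Bnip3l, Stc1, Plod2 and Lox. At least 1 match was present for 26 of the 27 (96.3%), Mif being the exception, and for 25 of the 26 (96.2%) above the floor. Counted in the same way, by the window with the most matches of each gene, the share was 41.5% of all 27025 genes and 63.6% of the 7945 genes above the floor, and by single windows it was 38.6% of 32851. Where ACGTG is preceded by C it reads the same on both strands, and each strand was counted, so matches can overlap. Matches are letters only, and binding was not measured. The list was made of known HIF targets, so the share with a match is not read as a result of these arrays. Shown are the windows of the genes that were 2-fold higher in both hypoxia comparisons and have one, in order of their mean ratio, 5′ to 3′ on the strand of the gene, with the matches on either strand in capitals. Mgarp lies at chr3:51396548-51396797 on the minus strand with 1 match, Ankrd37 at chr8:45999851-46000100 on the minus strand with 4, Adm at chr7:110627407-110627656 on the plus strand with 2, Ero1a at chr14:45318573-45318822 on the minus strand with 3 and Fam162a at chr16:36071562-36071811 on the minus strand with 6.
Mgarp: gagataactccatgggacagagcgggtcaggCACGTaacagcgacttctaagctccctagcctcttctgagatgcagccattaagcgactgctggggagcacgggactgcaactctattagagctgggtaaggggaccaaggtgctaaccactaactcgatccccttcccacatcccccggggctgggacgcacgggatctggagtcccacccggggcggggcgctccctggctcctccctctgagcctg
Ankrd37: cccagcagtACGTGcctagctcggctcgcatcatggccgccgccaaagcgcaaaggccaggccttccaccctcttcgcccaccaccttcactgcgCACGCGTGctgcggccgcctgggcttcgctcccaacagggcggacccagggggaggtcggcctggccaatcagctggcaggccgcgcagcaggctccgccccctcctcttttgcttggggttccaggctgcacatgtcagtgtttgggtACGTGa
Adm: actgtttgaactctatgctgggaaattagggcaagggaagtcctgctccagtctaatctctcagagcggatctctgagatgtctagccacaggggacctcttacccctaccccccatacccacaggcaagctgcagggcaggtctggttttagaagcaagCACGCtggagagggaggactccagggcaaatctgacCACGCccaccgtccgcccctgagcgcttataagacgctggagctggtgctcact
Ero1a: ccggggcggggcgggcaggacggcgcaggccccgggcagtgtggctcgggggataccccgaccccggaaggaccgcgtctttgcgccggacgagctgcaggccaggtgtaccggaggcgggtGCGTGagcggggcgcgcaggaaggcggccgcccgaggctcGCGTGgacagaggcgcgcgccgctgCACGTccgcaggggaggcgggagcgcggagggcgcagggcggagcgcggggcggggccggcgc
Fam162a: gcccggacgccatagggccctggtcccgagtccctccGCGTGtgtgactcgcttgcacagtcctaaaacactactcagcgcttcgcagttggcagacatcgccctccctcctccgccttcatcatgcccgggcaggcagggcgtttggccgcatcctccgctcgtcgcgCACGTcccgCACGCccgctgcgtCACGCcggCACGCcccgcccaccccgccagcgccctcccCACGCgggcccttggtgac

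Mgarp and Ankrd37, with the highest mean hypoxia ratios of these genes (2.28 and 2.13 on the log2 scale), held 1 and 4 matches, and Fam162a, with the lowest of the 5 (1.20), held 6. In Ankrd37 the run CACGCGTG holds overlapping matches, 1 on each strand. The number of matches was not in the order of the ratios in these 5 windows.

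Among the 7 targets that act in transcription and chromatin, 2 were 2-fold higher in HC over NC (Ankrd37 and Bhlhe40) and 1 in HC+IL6 over NC+IL6 (Ankrd37). Ankrd37 encodes a small ankyrin repeat protein. Its log2 signal was 9.04 in NC, 11.35 in HC, 9.81 in NC+IL6 and 11.77 in HC+IL6, so that both hypoxia arrays lay above both normoxia arrays. Hypoxia came with a 4.94-fold higher signal without IL6 and a 3.89-fold higher one with it, and the IL6 folds of 1.70 in normoxia and 1.34 in hypoxia were under 2. Bhlhe40, also called Dec1, is a basic helix-loop-helix repressor with roles in the circadian clock and in immune cells. It read 8.61 in NC, 10.27 in HC, 9.89 in NC+IL6 and 10.81 in HC+IL6. The NC array stood below the other 3, with Bhlhe40 3.16-fold higher in HC and 2.43-fold higher in NC+IL6, whereas HC+IL6 was 1.90-fold above NC+IL6.

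The other 5 genes of this group were under 2-fold in every comparison. Kdm3a, a histone demethylase, read 10.32 in NC, 11.11 in HC, 10.43 in NC+IL6 and 10.88 in HC+IL6, a 1.72-fold difference between HC and NC and a 1.36-fold one between HC+IL6 and NC+IL6. Mxi1, a partner of Max that opposes Myc, read 10.58 in NC, 10.80 in HC, 10.49 in NC+IL6 and 10.92 in HC+IL6. Its other probe set gave a log2 ratio of -0.12 in HC over NC against 0.21 for the one shown, a disagreement in sign within the spread of probe sets. Cited2 competes with HIF for the coactivators CBP and p300 and so limits the response. It lay between 13.86 and 14.22 on the 4 arrays, with ratios of 0.27 and 0.33 for hypoxia without and with IL6. Jmjd6, a dioxygenase of the jumonji family, read 9.93 in NC, 9.75 in HC, 10.41 in NC+IL6 and 10.49 in HC+IL6, with IL6 ratios of 0.48 and 0.74 and hypoxia ratios of -0.18 and 0.08. Narf, which encodes a nuclear protein that binds prelamin A, read 7.80 in NC, 8.15 in HC, 8.25 in NC+IL6 and 8.42 in HC+IL6. As deposited, another probe set of Narf gave -0.13 in HC over NC, and a different one gave -0.70 in HC+IL6 over NC+IL6. In both cases the hypoxia array was below its floor, and raising it took it past the normoxia array, so neither has a fold. The one shown gave 0.35 and 0.18. Each of the others was below the floor in the remaining hypoxia comparison. They neither repeat nor contradict the probe set shown, so the direction of Narf was not settled.

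Of the 4 targets that restrain growth or answer stress, Ndrg1, Ddit4 and Ccng2 were 2-fold higher in HC over NC, and Ndrg1 was in HC+IL6 over NC+IL6. Ndrg1 encodes a cytoplasmic protein tied to differentiation and to the suppression of metastasis. Its log2 signal was 11.40 in NC, 12.97 in HC, 13.51 in NC+IL6 and 14.73 in HC+IL6, with no pair of arrays close together. The folds were 2.96 for hypoxia alone, 4.31 for IL6 alone, 2.33 for hypoxia beside IL6 and 3.39 for IL6 within hypoxia. All 5 probe sets of Ndrg1 gave the same direction in the 4 comparisons, with ratios from 1.15 to 1.82 in HC over NC and from 1.22 to 2.15 in HC+IL6 over NC+IL6. Whether the hypoxia ratio was lower or higher with IL6 differed between them. Ratios of 1.57 and 1.82 without IL6 went to 1.22 and 1.66 with it. Those of 1.70, 1.74 and 1.15 went to 2.15, 2.08 and 2.15.

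Ddit4 (REDD1), an inhibitor of the growth kinase mTORC1, had another shape. It read 9.15 in NC, then 10.80 in HC, 10.91 in NC+IL6 and 10.76 in HC+IL6, so that the NC array stood alone and the other 3 were within 0.16 of each other. Hypoxia alone came with a 3.13-fold and IL6 alone with a 3.39-fold higher signal, while in HC+IL6 over NC+IL6 the log2 ratio was -0.16. Ccng2, an atypical cyclin linked to cell cycle arrest, had the same outline at a smaller size. Its signals were 10.53 in NC, 11.57 in HC, 11.38 in NC+IL6 and 11.58 in HC+IL6. Ccng2 was 2.06-fold higher in HC over NC, just past the threshold, and 1.15-fold higher in HC+IL6 over NC+IL6. The second probe set of Ccng2 gave a log2 ratio of 0.91 in HC over NC, under 2-fold. Wsb1, part of a ubiquitin ligase, stayed between 11.68 and 12.09 on the 4 arrays. Its hypoxia ratios of -0.11 and -0.41 were both below 0, the only such gene among the measured targets.

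Among the 5 targets with products in mitochondria, 4 were 2-fold higher in HC over NC (Mgarp, Bnip3, Fam162a and Ak4) and 2 in HC+IL6 over NC+IL6 (Mgarp and Fam162a). Mgarp encodes a mitochondrial membrane protein that takes part in the transport and shape of mitochondria. It was below the floor in NC at 6.46, and read 9.23 in HC, 7.90 in NC+IL6 and 9.96 in HC+IL6. Mgarp was at least 5.65-fold higher in HC over NC, the highest ratio of the targets in that comparison, and 4.18-fold higher in HC+IL6 over NC+IL6. IL6 alone came with an at least 2.24-fold higher signal and IL6 within hypoxia with a 1.66-fold one. Fam162a, a mitochondrial protein with a role in hypoxic cell death, read 12.89 in NC, 14.23 in HC, 13.39 in NC+IL6 and 14.45 in HC+IL6. Both hypoxia arrays lay above both normoxia arrays for Fam162a, by 2.53-fold without and 2.08-fold with IL6, and the IL6 folds of 1.41 and 1.16 were under 2. The second probe set of Fam162a gave 1.60 and 0.66 on the log2 scale in the same comparisons, as deposited. It was below the floor in NC, at 5.82. With NC raised to the floor, this probe set was under 2-fold in both comparisons, as a lower bound in HC over NC.

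Bnip3, a receptor that sends mitochondria to autophagy, read 12.40 in NC, 14.00 in HC, 13.62 in NC+IL6 and 14.35 in HC+IL6. It was 3.04-fold higher with hypoxia alone and 2.34-fold higher with IL6 alone, and the 3 exposed arrays then lay within 0.73 of each other on the log2 scale. Ak4, an adenylate kinase of the mitochondrial matrix, read 9.58 in NC, 10.84 in HC, 11.12 in NC+IL6 and 11.59 in HC+IL6. Ak4 was 2.38-fold higher in HC and 2.90-fold higher in NC+IL6 than in NC. In HC over NC, 3 of its 5 probe sets had the brighter array above its floor, with ratios of 0.98 to 1.25 as deposited. The dimmest of these read 6.39 in NC, below the floor. With NC raised to the floor, its ratio is a lower bound under this range. Higd1a, an inner membrane protein that steadies the respiratory chain, read 13.17 in NC, 13.61 in HC, 13.51 in NC+IL6 and 14.05 in HC+IL6. Every Higd1a ratio was under 2-fold for this probe set, although another probe set gave 1.14 in HC+IL6 over NC+IL6. Bnip3l, the paralog of Bnip3, was read by 3 probe sets that also match Bnip3l-ps, a pseudogene, so its signal cannot be separated from that copy and it entered no count. On the brightest of the 3 the log2 signal was 11.13 in NC, 12.85 in HC, 11.85 in NC+IL6 and 13.13 in HC+IL6. The ratios over the 3 were 1.42 to 1.72 in HC over NC and 1.002 to 1.28 in HC+IL6 over NC+IL6.

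Of the 5 secreted products, Adm, Vegfa and Stc2 were 2-fold higher in HC over NC, and Adm was in HC+IL6 over NC+IL6. Adm encodes adrenomedullin, a peptide that widens blood vessels. It read 6.80 in NC, just above that array's floor of 6.73, 8.84 in HC, 8.93 in NC+IL6 and 10.66 in HC+IL6. The single exposures were nearly equal and their combination lay above both. Adm was 4.12-fold higher with hypoxia alone, 4.38-fold higher with IL6 alone, 3.30-fold higher with hypoxia beside IL6 and 3.51-fold higher with IL6 within hypoxia. Its other probe set gave log2 ratios of 2.12, 1.99, 1.91 and 1.78 in that order, as deposited. That probe set was below the floor in NC, at 6.37. With NC raised to the floor, the ratios of 2.12 and 1.99 become smaller lower bounds that stay past 2-fold. Vegfa, the growth factor of blood vessels, read 7.28 in NC, 8.74 in HC, 9.01 in NC+IL6 and 9.41 in HC+IL6. It was 2.74-fold higher with hypoxia alone and 3.33-fold higher with IL6 alone, and its fold for hypoxia beside IL6 was 1.31. As deposited, both probe sets of Vegfa showed this, with 1.23 to 1.46 in HC over NC and 0.36 to 0.39 in HC+IL6 over NC+IL6. The second probe set was below the floor in NC, at 5.96. With NC raised to the floor, its lower bounds for hypoxia alone and for IL6 alone were under 2-fold.

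Stc2, a stanniocalcin, a glycoprotein hormone made in many stressed cells, was below the floor in NC at 6.47 and read 8.00 in HC, 8.17 in NC+IL6 and 8.64 in HC+IL6. Hypoxia alone came with an at least 2.40-fold and IL6 alone with an at least 2.71-fold higher Stc2 signal, and in HC+IL6 over NC+IL6 the fold was 1.38. The call of Stc2 in HC over NC was lost under quantile normalization, under a common floor of 200 and with the mean over its probe sets. The related Stc1 was below the floor on all 4 arrays, at 3.43 to 4.64, so no fold is given. Mif, a cytokine that macrophages release and that was named for its effect on their movement, lay between 14.73 and 14.92 on the 4 arrays. Of its 3 probe sets 1 was above the floor, and no Mif fold exceeded 1.14.

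Of the 6 targets that modify collagen or fold secreted proteins, 5 were measured in hypoxia, and 1 of the 5 (Ero1a) was 2-fold higher in HC over NC and 4 (Ero1a, P4ha2, Plod1 and Plod2) were in HC+IL6 over NC+IL6. The difference between these counts was not tested, and for P4ha2 and Plod2 the fold in HC over NC is only a lower bound. Ero1a encodes the oxidase that renews disulfide bonds in the endoplasmic reticulum. It read 11.58 in NC, 12.85 in HC, 13.17 in NC+IL6 and 14.36 in HC+IL6. The folds of Ero1a were 2.41 for hypoxia alone, 2.27 for hypoxia beside IL6, 3.01 for IL6 alone and 2.84 for IL6 within hypoxia. On this probe set the hypoxia ratio differed by -0.09 between cells with and without IL6. Another gave 1.31 without and 1.52 with IL6, and the last gave 1.53 and 1.35. All 3 probe sets were above 2-fold in all 4 comparisons.

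P4ha2 and P4ha1 encode catalytic subunits of prolyl hydroxylase, which stabilizes the collagen helix. P4ha2 was below the floor in NC at 4.86, and read 7.15 in HC, 6.62 in NC+IL6 and 8.89 in HC+IL6. It was 4.81-fold higher in HC+IL6 over NC+IL6, the highest ratio of the targets in that comparison, and 3.34-fold higher in HC+IL6 than in HC. Against NC only a bound could be had, at least 1.33-fold in HC (a log2 ratio of 2.29 as deposited, against 2.27 with IL6), and none for NC+IL6, whose signal lay under the floor of the NC array. P4ha1 read 10.39 in NC, 10.89 in HC, 11.14 in NC+IL6 and 11.30 in HC+IL6, with folds from 1.11 to 1.68. Plod1 and Plod2 are lysyl hydroxylases, which prepare collagen for cross-linking. Plod1 read 9.10 in NC, 9.89 in HC, 9.21 in NC+IL6 and 10.26 in HC+IL6, so that both hypoxia arrays lay above both normoxia arrays, by 1.74-fold without and 2.08-fold with IL6. Plod2 was below the floor on both normoxia arrays, at 6.20 and 5.68, and read 7.08 in HC and 7.80 in HC+IL6. The bounds for Plod2 were at least 1.27-fold and at least 2.53-fold, each taken against the floor of the normoxia array, and the call with IL6 was lost under a common floor of 200. Lox, the lysyl oxidase that cross-links collagen, stayed below the floor on all 4 arrays, at 2.62 to 6.01.

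Plin2 and Hilpda, the measured genes of lipid storage, were 2-fold higher with IL6 in normoxia and under 2-fold in both hypoxia comparisons. Plin2 coats lipid droplets. It read 11.76 in NC, 12.74 in HC, 12.78 in NC+IL6 and 13.06 in HC+IL6. Its folds were 2.03 for IL6 alone and 1.97 for hypoxia alone, on either side of the threshold and close to each other. Hilpda, an inhibitor of the lipase that empties lipid droplets, read 8.24 in NC, 8.84 in HC, 9.57 in NC+IL6 and 9.71 in HC+IL6. Both IL6 arrays lay above both arrays without IL6 for Hilpda, by 2.51-fold in normoxia and 1.83-fold in hypoxia, and its hypoxia folds were 1.52 and 1.11. Ppp1r3c, which targets a phosphatase to glycogen, was below the floor on all 4 arrays, at 2.85 to 4.96.

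The last 2 targets act at membranes. Car9 encodes a carbonic anhydrase of the cell surface that regulates pH. It was below the floor in NC at 6.41, and read 7.99 in HC, 7.28 in NC+IL6 and 8.21 in HC+IL6. Car9 was at least 2.38-fold higher in HC over NC and 1.90-fold higher in HC+IL6 over NC+IL6, and the call in HC over NC was lost under quantile normalization and a common floor of 200. Rab20, a small GTPase of vesicles and phagosomes, read 6.89 in NC, 7.37 in HC, 7.72 in HC+IL6 and 8.23 in NC+IL6. It was 2.54-fold higher with IL6 in normoxia. The hypoxia ratio of Rab20 was 0.49 without IL6 and -0.50 with it, and the difference could not be tested with 1 array per condition.

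Taken from the signals as deposited, with no floor applied, the hypoxia ratio was lower in the presence of IL6 for most targets. The log2 ratio of HC+IL6 over NC+IL6 minus that of HC over NC had a median of -0.34 over the 29 targets and was below 0 for 22 of them. Each gene is read here by its brightest probe set, and some other probe sets of Ndrg1 and Ero1a went the other way, as given above. Over all 9000 genes above the floor on at least 1 array of each pair, the median was -0.00 and 4523 were below 0. Among the targets above the floor on all 4 arrays, the lowest values were -1.80 for Ddit4, -1.06 for Vegfa, -0.99 for Rab20, -0.87 for Bnip3 and -0.85 for Ccng2. Mgarp, Stc2, Car9, P4ha2 and Plod2 had a normoxia array below its floor, so their differences depend on how the floor is applied and are not ranked. Bhlhe40, Ddit4, Ccng2, Bnip3, Ak4, Vegfa, Stc2 and Car9, 8 of 29 targets, were called higher in HC over NC and not in HC+IL6 over NC+IL6, as were 2.48% of the 8848 genes with a fold in both. That left 6 targets called in both, where among all genes 219 were called in HC over NC alone and 115 in both, so calls that did not recur with IL6 were common among all genes too. P4ha2, Plod1 and Plod2, 3 of 29 targets, were called with IL6 and not without it, as were 1.75% of all genes, and for P4ha2 and Plod2 the fold without IL6 is a lower bound that may hide 2-fold. None of these differences was tested.

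**Figure D3:**
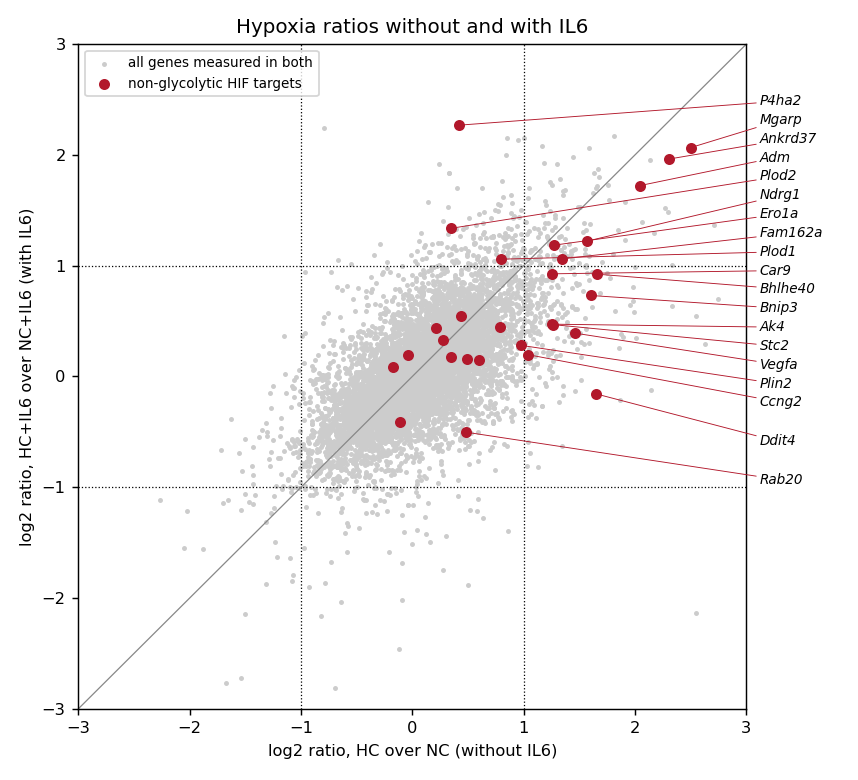
Log2 ratio of HC over NC (x axis) against log2 ratio of HC+IL6 over NC+IL6 (y axis) for all genes measured in both (small points) and the targets (large points); dotted lines mark 2-fold and the diagonal marks equal ratios, and genes beyond 3 on either axis are not drawn. Ankrd37, Ndrg1, Fam162a, Mgarp, Adm and Ero1a lie past 2-fold on both axes, and Ddit4 lies at 1.64 on the x axis and -0.16 on the y axis. A dimmer array below its floor was raised to it, as for P4ha2 at 0.41 on the x axis.

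Whether hypoxia or IL6 went with the brighter signal differed from gene to gene. The NC+IL6 array was brighter than the HC array for 14 of the 29 targets and dimmer for 15. No such count was made over all genes, so the split is not read as particular to the targets. Among those brighter in NC+IL6 were the secreted Vegfa, Adm and Stc2, the lipid droplet genes Plin2 and Hilpda, and Ndrg1, Ero1a and Ak4. Those brighter in HC included Ankrd37, Bnip3, Fam162a, Mgarp, Higd1a, Car9 and Bhlhe40. Ndrg1, Adm and Ero1a were 2-fold higher in both IL6 comparisons, which share no array, 3 of the 27 targets with a fold in both beside 1.61% of all genes.

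**Figure D4:**
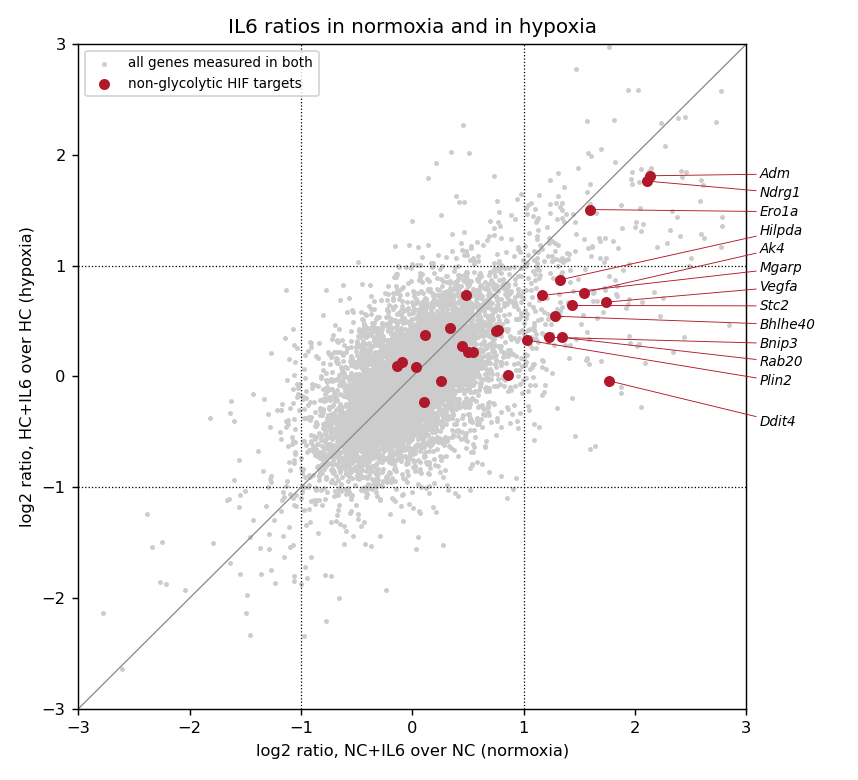
Log2 ratio of NC+IL6 over NC (x axis) against log2 ratio of HC+IL6 over HC (y axis) for all genes measured in both (small points) and the targets (large points); dotted lines mark 2-fold, the diagonal marks equal ratios, and genes beyond 3 on either axis are not drawn. Ndrg1, Adm and Ero1a lie past 2-fold on both axes, and Ddit4 lies at 1.76 in normoxia and -0.04 in hypoxia.

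**Figure D5:**
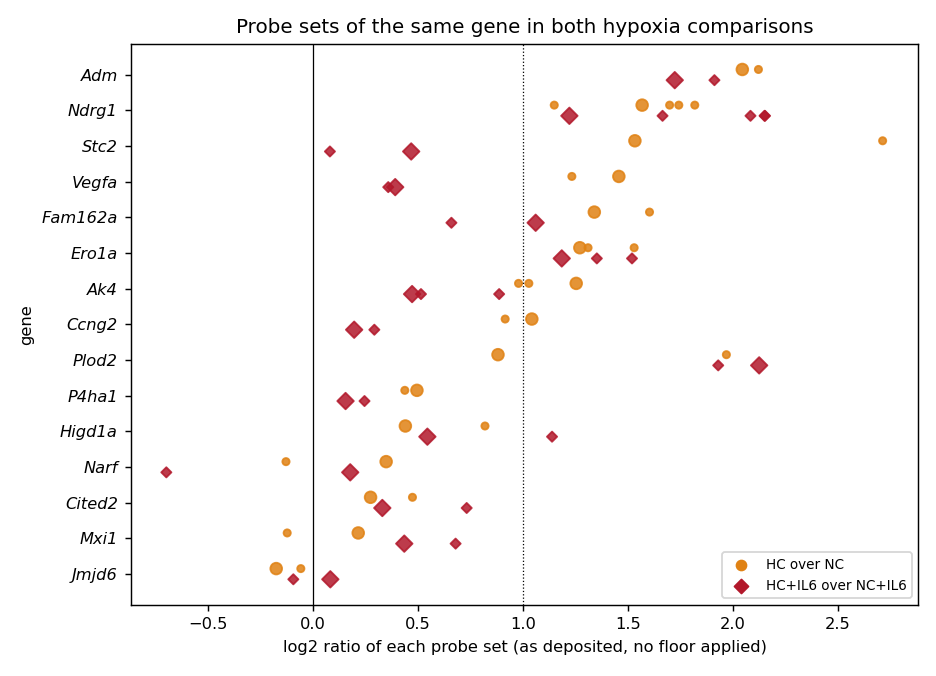
Log2 ratio as deposited (x axis) of each probe set above the floor, for targets with more than 1 such probe set (y axis), in HC over NC and in HC+IL6 over NC+IL6; the large symbol is the probe set used in the text and the dotted line marks 2-fold. All probe sets of Adm, Ndrg1 and Ero1a lie past 2-fold in both comparisons, while those of Narf and Mxi1 fall on both sides of 0.

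The rest of the pathway gave a scale for these values. Of 24 listed HIF targets in glucose metabolism 22 were measured, with median log2 ratios of 0.42 in HC over NC and 0.39 in HC+IL6 over NC+IL6 and none 2-fold lower. In each hypoxia comparison 4 were 2-fold higher, beside 3.8% and 3.3% of all genes. They were Pfkfb3, which makes the activator of phosphofructokinase (3.75-fold without and 2.35-fold with IL6), the glycolytic enzymes Aldoc (2.31 and 2.39) and Eno2 (at least 2.07 and 3.26), and the glycogen branching enzyme Gbe1 (2.45 and 3.78). Of 5 oxygen sensors and degradation factors, Egln1 and Egln3, prolyl hydroxylases that mark HIF for destruction, were 2-fold higher in both. Egln1 read 9.28 in NC, 10.43 in HC, 9.35 in NC+IL6 and 10.43 in HC+IL6, with folds of 2.22 and 2.11, so that its levels with and without IL6 were alike at each oxygen level. Egln3 read 5.49, 8.02, 6.66 and 8.02 in the same order, at least 2.43-fold and 2.55-fold higher in hypoxia, and the NC signal was below the floor. No HIF subunit gene that could be measured (2 of 5 without and 3 of 5 with IL6) was called. For the subunit gene measured only with IL6 the fold was at least 1.58, a lower bound that may hide 2-fold. None of 9 housekeeping genes was called in any comparison, with log2 ratios between -0.34 and 0.38. Gapdh is both a housekeeping gene and a listed glucose metabolism target, and gave 0.25 in HC over NC and the 0.38 in HC+IL6 over NC+IL6.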

How the data were processed

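RNA of RAW264.7 cells in 4 conditions was measured on 1 array each. Per the labels, the authors summarized probe sets with MAS5 (version not stated in the sources at hand) and deposited 1 table of log2 signals. The arrays had been scaled alike, as the signals trimmed by 2% at either end averaged 500.004 on all 4. Detection calls were not used here. Of 45101 probe sets, 35890 were listed with a gene in the platform annotation, and the 34958 with 1 symbol gave 18194 genes. Gene numbers of 34754 probe sets matched RefSeq, and 0 symbols had to be updated. The probe set that was brightest on average over the arrays (log2 scale) stood for its gene.

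Background floors, at the 95th percentile over the 96 probe sets found for 57 of 64 listed genes of other tissues, were signals of 88.2 to 130.2. Ratios, folds and the 2-fold rule are those given with the results. No replicate exists, so no test was made. The target genes and lists were chosen with earlier results of these data known. All targets are named, and of the other HIF pathway genes those past 2-fold in a hypoxia comparison. Alternatives were quantile normalization and cyclic loess, other floors, a 1.5-fold threshold, the mean over probe sets, an added background and, chosen after seeing the data, a common floor at a signal of 200 and scaling on housekeeping genes. Scripts were tested on simulated data and ran with Python 3.11.15, numpy 2.4.6, pandas 2.3.3, R 4.3.3 and limma 3.58.1, with matplotlib 3.10.9 for figures.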

Additional observations from a re-analysis of the deposited data

Results flagged for a closer look

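Rab20, the small GTPase of phagosomes, had hypoxia log2 ratios of opposite sign without and with IL6, 0.49 in HC over NC and -0.50 in HC+IL6 over NC+IL6, a difference of -0.99. The SD of 0.34 between probe sets of the same gene does not include the variation between cultures, so these values are not judged by it. Rab20 was near the floor without IL6, at 6.89 in NC against 6.73 and at 7.37 in HC against 6.93. The difference was not tested, since each condition has 1 array and Rab20 has 1 probe set.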

How the results depend on the processing

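No paired analysis was possible because each condition has 1 array, and no replicate could be left out. An additive fit over the 4 arrays, whose error would be the difference between the hypoxia ratios, was not run. Over the alternatives at 2-fold, the number of targets higher ranged from 12 to 16 in HC over NC, 8 to 9 in HC+IL6 over NC+IL6 and 10 to 15 in NC+IL6 over NC, and was 4 in HC+IL6 over HC. At a 1.5-fold threshold, which lets more genes pass by its construction, the counts were 18, 12, 16 and 11. The median difference of the hypoxia ratios lay between -0.48 and -0.33. Of 23 hypoxia calls, Stc2 and Car9 in HC over NC were lost with quantile normalization and with a common floor of 200, which also lost Plod2 in HC+IL6 over NC+IL6. The mean over probe sets lost Stc2 and Ccng2 in HC over NC and Fam162a in HC+IL6 over NC+IL6. Cyclic loess and scaling on housekeeping genes lost 0. Among all calls in HC over NC, 77.9% were higher as deposited, 58.3% with quantile normalization, 62.3% with loess and 92.0% with housekeeping scaling, which moved the median of all genes from 0.05 to 0.23. In HC+IL6 over NC+IL6 the shares were 70.6%, 53.6%, 53.3% and 76.0%. Below the floor the balance of all genes was not settled, since with the background median as the floor, no floor and the background added the share was 40.0%, 49.6% and 26.5% in NC+IL6 over NC (74.7% with the floor) and 42.2%, 50.5% and 31.9% in HC+IL6 over HC (56.8%), and with no floor it was 57.7% and 59.6% in HC over NC and HC+IL6 over NC+IL6. The median ratio of the targets stayed above 0 in all 4 comparisons under all these settings. No target was 2-fold lower with quantile normalization, loess or housekeeping scaling, and with no floor 2 were in HC over NC and 1 in each IL6 comparison. Signals near the floor limit Mgarp, Stc2, Car9, P4ha2 and Plod2 to bounds.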
